A study of Homo sapiens with 6 samples.

Results

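The 9 genes described here encode the core of Polycomb repressive complex 2 (EZH1, EZH2, SUZ12 and EED) and the enzymes and recruiting factors of DNA methylation (DNMT1, DNMT3A, DNMT3B, UHRF1 and HELLS). They were chosen by name, as the rows of the gene table whose Ensembl identifiers map to these symbols. All 9 were found among 58825 identifiers, and all 9 had enough counts to be tested, with 16208 genes tested in all. RNA was sequenced from SKOV3, an established human ovarian cancer cell line, 48 h after transfection of a negative control siRNA (NC) or of si-EIF5A2, an siRNA against the translation factor gene EIF5A2. There were 3 libraries per group, and apart from the siRNA the labels give both groups the same cell line and no other treatment. Because all libraries came from 1 line and nothing in the labels says that they came from separate cultures, the p-values below measure only the spread between these libraries, which may be technical. The mRNA of whole cultures was measured, so a lower level in every cell cannot be told apart from fewer cells in the phase that makes the transcript.

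Polycomb repressive complex 2 (PRC2) methylates histone H3 at lysine K27, a mark of silenced developmental genes. EZH2 and EZH1 are its alternative catalytic subunits, EED binds the mark, and SUZ12 holds the complex together. DNA methylation is copied after replication by DNMT1, which is brought to newly made DNA by UHRF1, a reader of hemimethylated sites, whereas DNMT3A and DNMT3B place methyl groups on unmarked sites and HELLS, a chromatin remodeler, opens nucleosomal DNA for methylation. EZH2, DNMT1, UHRF1 and HELLS are known to be abundant in dividing cells.

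The libraries held 46900204 to 74142267 estimated counts, and levels are given in CPM, the usual per-library share of the counts after TMM scaling. EIF5A2 was at 27.8, 29.8 and 29.9 CPM in NC and at 2.76, 4.04 and 4.27 CPM in si-EIF5A2, so the targeted transcript was at 12.7% of its NC mean. Of the epithelial markers, KRT8 fell from 608 to 377 CPM (log2 fold change -0.69, edgeR adjusted p = 0.000536), whereas KRT18 (297 to 457 CPM in the 6 libraries), ERBB2 (42.1 to 48.6 CPM), KRT19 (2.24 to 3.85 CPM) and EPCAM (1.15 to 1.68 CPM) were not called. Of the markers of other cell types, PTPRC and CD3E of leukocytes were at 0, DCN of fibroblasts at 0.229 CPM or below, COL1A1 of fibroblasts at 1.98 CPM or below and VWF of endothelium at 0.334 CPM or below, and PECAM1 of endothelium was at 1.62 to 2.04 CPM in NC and at 0 to 0.667 CPM in si-EIF5A2 and was not called. Libraries correlated at 0.964 to 0.974 within groups and at 0.929 to 0.938 between groups.

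After EIF5A2 knockdown, 4 of the 9 genes fell and 0 rose. A gene was called when its adjusted p in edgeR's quasi-likelihood test (Benjamini-Hochberg over all genes tested) was under 0.05 and its fold change over 1.5. The genes that fell were EZH2 in PRC2 and DNMT1, UHRF1 and HELLS in DNA methylation, to between 25.3% and 56.8% of their NC means. EZH1, SUZ12, EED, DNMT3A and DNMT3B were not called. DESeq2 also called 4 lower and 0 higher. Across all genes tested, 13.6% were called lower and 11.1% were called higher, with a median log2 fold change of -0.01. With no limit on the fold change, 6 members had an adjusted p under 0.05 in the same edgeR test, against 36.9% of all genes in either direction. These were the 4 that fell together with EED, which was lower, and DNMT3A, which was higher. With a library left out, the edgeR adjusted p of EED ran from 0.0389 to 0.063 and was over 0.05 in 5 of 6 fits, while that of DNMT3A ran from 0.00631 to 0.027. The same 6 members had CPM ranges that did not overlap between groups, as did 51.2% of all genes. Under the stricter fold limit of 2 with an unadjusted p under 0.05, 3 members were lower (EZH2, UHRF1 and HELLS), against 9.24% of all genes. EZH2 passed that fold limit narrowly, with a log2 fold change of -1.003, and fell short of it with RLE scaling (-0.995). With a library left out, the log2 fold change of EZH2 ran from -1.079 to -0.938, on both sides of the limit.

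The promoters of the 4 genes that fell are shown. These genes were picked by that call alone, and whether they share a control was not tested. Each promoter is the 300 bases from 250 before to 50 after the first RefSeq start site, on the coding strand, 5′ to 3′, in GRCh38.p14. Capitals mark matches to the E2F sequences searched, which were TTTCCCGC, TTTCGCGC, TTTGCCGC and TTTGGCGC on either strand. EZH2 lies on the minus strand (chr7:148884242-148884541), DNMT1 on the minus strand (chr19:10194904-10195203), UHRF1 on the plus strand (chr19:4909251-4909550) and HELLS on the plus strand (chr10:94545538-94545837).
EZH2: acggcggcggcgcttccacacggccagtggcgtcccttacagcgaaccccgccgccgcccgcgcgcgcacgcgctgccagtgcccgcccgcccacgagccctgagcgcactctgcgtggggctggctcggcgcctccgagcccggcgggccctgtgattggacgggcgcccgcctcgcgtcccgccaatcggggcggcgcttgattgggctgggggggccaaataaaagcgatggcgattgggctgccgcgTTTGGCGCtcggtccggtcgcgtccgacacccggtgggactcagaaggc
DNMT1: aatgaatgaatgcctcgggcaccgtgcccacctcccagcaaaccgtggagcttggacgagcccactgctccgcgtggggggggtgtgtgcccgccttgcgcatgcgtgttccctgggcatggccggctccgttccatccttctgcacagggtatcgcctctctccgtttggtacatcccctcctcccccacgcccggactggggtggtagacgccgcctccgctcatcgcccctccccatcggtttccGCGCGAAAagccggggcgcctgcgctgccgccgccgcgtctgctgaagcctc
UHRF1: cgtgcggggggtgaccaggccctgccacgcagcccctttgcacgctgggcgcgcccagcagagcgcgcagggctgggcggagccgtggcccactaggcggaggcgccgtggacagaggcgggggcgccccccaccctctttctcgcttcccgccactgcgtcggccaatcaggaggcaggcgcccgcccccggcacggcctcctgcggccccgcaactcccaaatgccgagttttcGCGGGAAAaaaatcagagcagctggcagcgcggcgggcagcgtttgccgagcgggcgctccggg
HELLS: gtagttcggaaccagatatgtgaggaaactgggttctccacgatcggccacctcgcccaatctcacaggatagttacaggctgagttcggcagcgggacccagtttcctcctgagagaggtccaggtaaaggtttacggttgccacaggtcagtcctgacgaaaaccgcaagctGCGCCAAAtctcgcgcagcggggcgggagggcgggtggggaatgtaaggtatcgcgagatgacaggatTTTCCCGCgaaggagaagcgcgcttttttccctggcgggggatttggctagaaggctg
All 4 of these promoters held a match. It began at base 2 after the start in EZH2 and at bases -2, -14 and -8 in DNMT1, UHRF1 and HELLS, and HELLS had a second match at -76. Of the further RefSeq promoters of these genes, EZH2 entry 2 and UHRF1 entry 3 had 0 matches. UHRF1 entry 2 had 1 match, at -160. The RefSeq table held 17 promoters for the 9 genes, and 7 of them, from 6 genes, had an E2F match. The other 2 genes with a match were EZH1 (at -115) and SUZ12 (at -189), which were not called. EED, DNMT3A and DNMT3B had none in these windows. The only DNMT3B window (chr20:32779602-32779901) lies inside the gene, whose GENCODE start is 32762385, so the region at that start was not searched. The outermost GENCODE starts of DNMT1, UHRF1 and HELLS also lie outside the windows printed above. Among all 35116 promoters in the table, 3.31% held one of the E2F sequences, and among 27305 genes 3.99% had such a promoter. The sequence CCAAT, on either strand, was found for 6 members, with 4 copies in the EZH2 promoter printed above, and 39.7% of all genes had it. The cell cycle homology sequences TTTGAA and TTCGAA were found for 2 members (SUZ12 and DNMT3A), and 19.5% of all genes had them. No E2F match overlapped a match to another of these sequences in the member promoters. A match is a string of letters, and binding was not measured.

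EZH2, the catalytic subunit of PRC2 in dividing cells, was at 18.5, 20.8 and 22.8 CPM in NC and at 11.0, 9.90 and 10.1 CPM in si-EIF5A2. Every knockdown library lay below every NC library, and the mean was 49.9% of that in NC. The log2 fold change was -1.0 (SE 0.12, edgeR, Benjamini-Hochberg adjusted p = 0.000464, n = 3 per group). EZH2 spans chr7:148807383-148884321 on the minus strand (GRCh38, GENCODE 29, as for the genes below). EZH1, the paralog that can replace it in the complex, was at 29.5, 32.7 and 31.7 CPM in NC and at 29.8, 29.3 and 31.2 CPM in si-EIF5A2. The ranges of EZH1 overlapped, and its log2 fold change was -0.06 (SE 0.09, edgeR adjusted p = 0.651). The EZH2 to EZH1 ratio of CPM was 0.626, 0.635 and 0.718 in NC and 0.368, 0.339 and 0.323 in si-EIF5A2.

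Neither of the non-catalytic core subunits was called. SUZ12, the scaffold, was at 21.8, 18.1 and 21.3 CPM in NC and at 23.5, 17.3 and 17.9 CPM in si-EIF5A2. Its highest and its lowest value were both in the knockdown group, and the log2 fold change was -0.06 (SE 0.15, edgeR adjusted p = 0.784). EED, the subunit that reads the histone mark, was at 19.6, 18.7 and 19.2 CPM in NC and at 14.5, 15.6 and 14.9 CPM in si-EIF5A2. All 3 knockdown values of EED lay below the NC range, with narrow spread in both groups (SD 0.473 and 0.552 CPM). The log2 fold change of EED was -0.36 (SE 0.10, edgeR adjusted p = 0.0236), a size under the fold limit, so it was not called. SUZ12 shares sequence with the pseudogene SUZ12P1, which was at 2.01 CPM in NC against 1.95 CPM in si-EIF5A2, and fragments of the gene and its copy may be hard to separate. For EED, 66 bases of exon overlap the microRNA gene MIR6755, which was at 0.0196 CPM or below.

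DNMT1, the maintenance DNA methyltransferase, spans chr19:10133345-10231286 on the minus strand. It was at 66.2, 78.5 and 79.2 CPM in NC and at 45.7, 41.0 and 40.5 CPM in si-EIF5A2. The lowest NC library lay above the highest knockdown library, and the log2 fold change was -0.82 (SE 0.10, edgeR, Benjamini-Hochberg adjusted p = 0.000519). UHRF1, which recruits DNMT1 and spans chr19:4903080-4962154 on the plus strand, was at 27.6, 23.0 and 37.6 CPM in NC and at 9.53, 8.54 and 9.07 CPM in si-EIF5A2. The NC values of UHRF1 were spread widely (SD 7.45 CPM) and the knockdown values tightly (SD 0.491 CPM), with no overlap. UHRF1 fell by 1.70 on the log2 scale (SE 0.18, edgeR adjusted p = 0.000260), and leaving out 1 library at a time gave -1.85 to -1.49. HELLS, the remodeler, spans chr10:94501434-94613905 on the plus strand and was at 8.30, 11.1 and 10.1 CPM in NC and at 2.74, 2.62 and 2.13 CPM in si-EIF5A2. HELLS had the lowest estimate of change of the 9 genes, with a knockdown mean at 25.3% of its NC mean and no overlap. Its log2 fold change was -1.98 (SE 0.18, edgeR adjusted p = 0.000123), and 3.54% of all genes tested had a lower one. The exons of DNMT1 share 83 bases with S1PR2 on the same strand, which was at 2.62 CPM or below, and those of HELLS share 438 bases with AL138759.1, at 0.260 CPM or below.

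Neither of the de novo DNA methyltransferases was called. DNMT3A (chr2:25227855-25342590, minus strand) was at 14.8, 15.2 and 17.7 CPM in NC and at 23.3, 23.6 and 22.6 CPM in si-EIF5A2. It was the only member whose knockdown libraries all lay above NC, and its log2 fold change was 0.54 (SE 0.11, edgeR, Benjamini-Hochberg adjusted p = 0.00564). The fold change of 1.46 fell short of the limit of 1.5, so DNMT3A was not called. This depended on 1 library, since without NC replicate 3 the log2 fold change was 0.62 (edgeR adjusted p = 0.00631) and the gene was called higher. DNMT3B was at 5.89, 8.24 and 7.32 CPM in NC and at 5.36, 7.43 and 5.92 CPM in si-EIF5A2. The DNMT3B ranges overlapped and the log2 fold change was -0.20 (SE 0.19, edgeR adjusted p = 0.475).

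**Figure D1:**
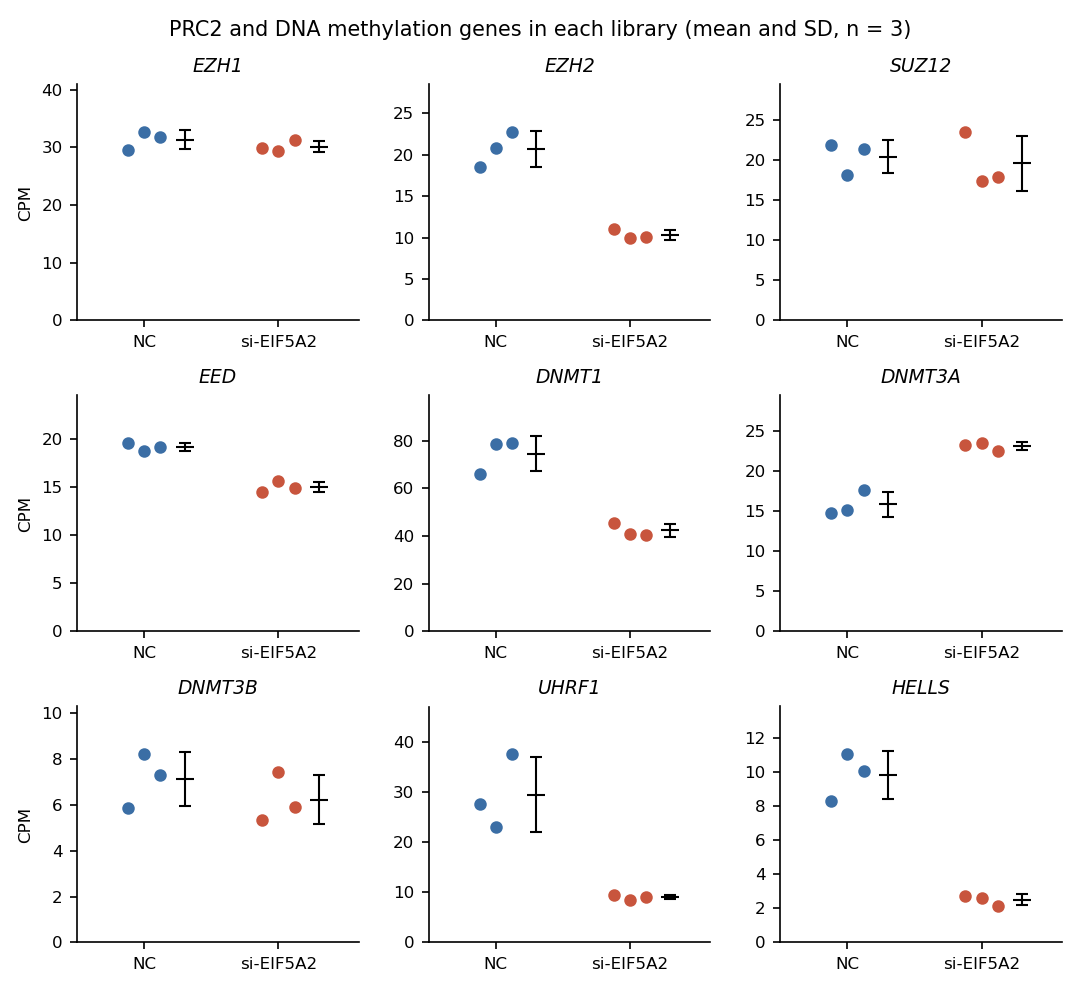
CPM (y axis, from 0, a scale of its own for each gene) of the 9 genes in the 3 NC (blue) and 3 si-EIF5A2 (red) libraries, with the mean and SD beside each group. The groups of EZH2, EED, DNMT1, UHRF1 and HELLS are separate with si-EIF5A2 lower, those of DNMT3A are separate with si-EIF5A2 higher, and those of EZH1, SUZ12 and DNMT3B overlap.

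**Figure D2:**
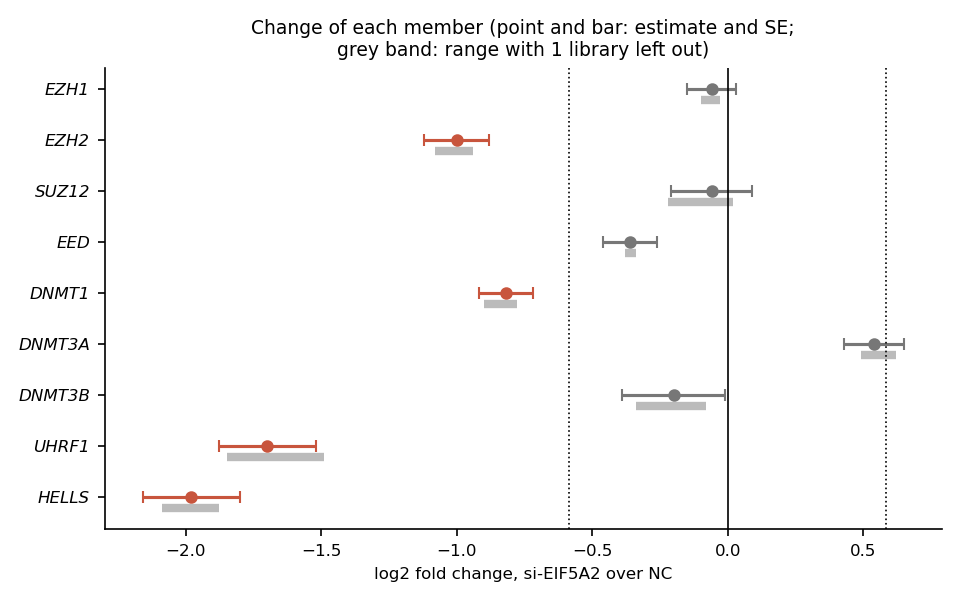
Log2 fold change of si-EIF5A2 over NC (x axis) for each member, with its SE and, as a grey band, the range when 1 library at a time was left out. Red points are genes that fell, dotted lines mark the fold limit of 1.5, and the DNMT3A band crosses that limit while the SUZ12 band crosses 0.

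Ratios within a library do not depend on its depth, and 6 were compared to ask whether members of a family changed unequally. In all 6 the NC and si-EIF5A2 values were apart. Each pair includes a member whose own CPM ranges did not overlap, as in 51.2% of all genes, and some genes recur in several pairs. The count of 6 is therefore no separate result, and no share over other pairs of genes was computed. The 2-sided exact permutation test gave p = 0.1 for each (0.1 after Benjamini-Hochberg adjustment over the 6). That is the smallest p that 3 against 3 libraries allow, and it cannot pass a threshold of 0.05. The EZH2 to EZH1 ratio was lower by a log2 difference of -0.94 (SE 0.08). Against the subunits they assemble with, EZH2 to SUZ12 differed by -0.93 (SE 0.16) and EZH2 to EED by -0.64 (SE 0.12), with the 3 knockdown libraries below the 3 NC libraries in both ratios. The largest shift was that of UHRF1 to its paralog UHRF2, which was 0.851, 0.694 and 0.956 in NC and 0.235, 0.233 and 0.249 in si-EIF5A2 (log2 difference -1.79, SE 0.14). The CPM ratio of the maintenance enzyme DNMT1 to DNMT3A was 4.47, 5.16 and 4.48 in NC and 1.97, 1.74 and 1.79 in si-EIF5A2 (log2 difference -1.36, SE 0.09). These ratios were not corrected for exon length, so they compare the groups and not the levels of the genes in a pair. DNMT3B to DNMT3A differed by -0.74 (SE 0.19).

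**Figure D3:**
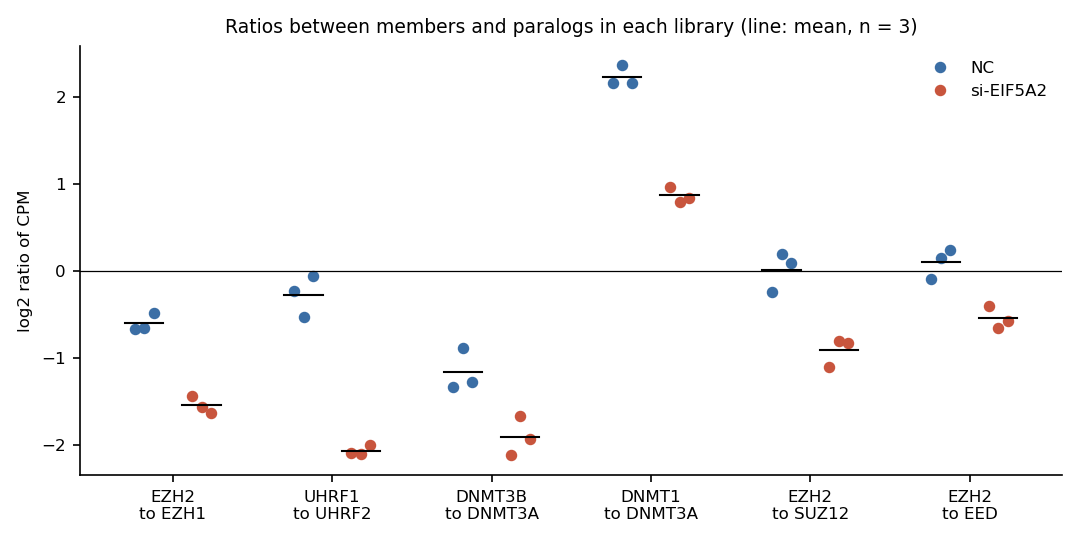
Log2 ratio of CPM (y axis) for 6 pairs of genes in each NC (blue) and si-EIF5A2 (red) library, with a line at the mean. In every pair the 3 knockdown libraries lie below the 3 NC libraries, by -0.64 (EZH2 to EED) to -1.79 (UHRF1 to UHRF2).

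The order of the members by level also shifted. Per kilobase of exon, NC cells held DNMT1 at 7.62, UHRF1 at 5.71, EZH2 at 4.57 and EZH1 at 4.48 CPM per kb, each overlapping its neighbour in range. SUZ12 (3.12) and EED (2.73) came next, then DNMT3B (1.54) and DNMT3A (1.32), and HELLS was lowest at 0.971 CPM per kb. In si-EIF5A2, DNMT1 (4.33) and EZH1 (4.30) were at the top with overlapping ranges, EZH2 (2.28 CPM per kb) lay below SUZ12 (2.99) and beside EED (2.14), and UHRF1 (1.76) had dropped below DNMT3A (1.93), whose range it did not touch. DNMT3B (1.35) and HELLS (0.246 CPM per kb) were the lowest of the 9 in the knockdown. The length used was that of all annotated exons, so a gene with many long, unused exons reads low.

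UHRF1 and HELLS are themselves in a widely used list of S phase marker genes, and of the other 41 genes in it 34 fell and 0 rose (82.9% called, against 24.6% of all genes in either direction), with a median log2 fold change of -1.65 against -0.01 for all genes. The summed level of these 41 genes was 1300 to 1470 CPM in NC and 604 to 626 CPM in si-EIF5A2. DTL, a factor of the replication-coupled ubiquitin ligase, went from 17.8 to 2.24 CPM, EXO1, an exonuclease of mismatch repair, from 7.81 to 0.997 CPM, and BLM, a DNA helicase, from 4.85 to 0.774 CPM. BLM was no longer called without NC replicate 1, NC replicate 3 or si-EIF5A2 replicate 2 (edgeR adjusted p = 0.0562, 0.0528 and 0.0671). Transcripts of E2F1, a cell cycle transcription factor, were at 15.5, 15.6 and 12.4 CPM in NC and at 3.95, 5.88 and 4.25 CPM in si-EIF5A2. EZH2, DNMT1, UHRF1 and HELLS fell in the same libraries as these markers, and the part of cell cycle phase in their fall was not tested.

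Among the partners that give PRC2 its variants, 9 of 10 listed genes were tested, of which 1 fell and 2 rose. This was 33.3% called, against 24.6% of all genes in either direction. The median log2 fold change was 0.14, against -0.01 for all genes. PHF19, a Polycomb-like protein that brings PRC2 to chromatin, was at 106, 106 and 99.3 CPM in NC and at 24.7, 31.5 and 28.1 CPM in si-EIF5A2. Its fall of 1.88 on the log2 scale (SE 0.11, edgeR, Benjamini-Hochberg adjusted p = 1.2e-05) stood beside a log2 fold change of -1.0 for EZH2, and the difference between these genes was not tested. MTF2, another Polycomb-like protein, went the other way, from 14.1 ± 0.594 to 22.1 ± 3.32 CPM (SD, n = 3), and JARID2, an accessory subunit of the alternative form of PRC2, rose from 14.7 ± 1.48 to 26.0 ± 2.66 CPM. The rise of MTF2 (log2 fold change 0.65) dropped to 0.54, under the fold limit, without si-EIF5A2 replicate 1. PHF1, the third Polycomb-like protein, was at 26.7 CPM in NC against 37.9 CPM in si-EIF5A2 (log2 fold change 0.50, edgeR adjusted p = 0.00582) and was not called. AEBP2, which pairs with JARID2 in the same form, had a log2 fold change of -0.40, and the histone-binding subunits RBBP4 and RBBP7 had 0.22 and -0.18, none of them called. EZHIP, an inhibitor of the complex, was at 0 counts in all libraries.

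Of the partners of DNA methylation, 7 of 8 listed genes were tested, of which 2 fell and 0 rose. This was 28.6% called, near the 24.6% of all genes in either direction. The median was -0.25, against -0.01 for all genes. LIG1, the replicative DNA ligase that UHRF1 binds, was at 27.2, 31.5 and 29.6 CPM in NC and at 6.73, 7.30 and 5.11 CPM in si-EIF5A2. LIG1 fell by 2.21 on the log2 scale (SE 0.16, edgeR, Benjamini-Hochberg adjusted p = 3.25e-05). CDCA7L, a relative of the HELLS activator CDCA7, fell by 1.38, whereas CDCA7 itself, at 9.67 CPM in NC against 8.12 CPM in si-EIF5A2, was not called although HELLS was at 25.3% of NC. Of the exon bases of CDCA7L, 20.4% lie opposite those of DNAH11, which was at 0.287 CPM or below. UHRF2, the paralog of UHRF1, was at 32.4, 33.2 and 39.3 CPM in NC and at 40.5, 36.6 and 36.4 CPM in si-EIF5A2, with overlapping ranges and a log2 fold change of 0.11 (SE 0.11). USP7, a deubiquitinase that binds DNMT1 and UHRF1, had -0.05, and DNMT3L, the cofactor of DNMT3A and DNMT3B, was at 0 counts in all libraries.

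**Figure D4:**
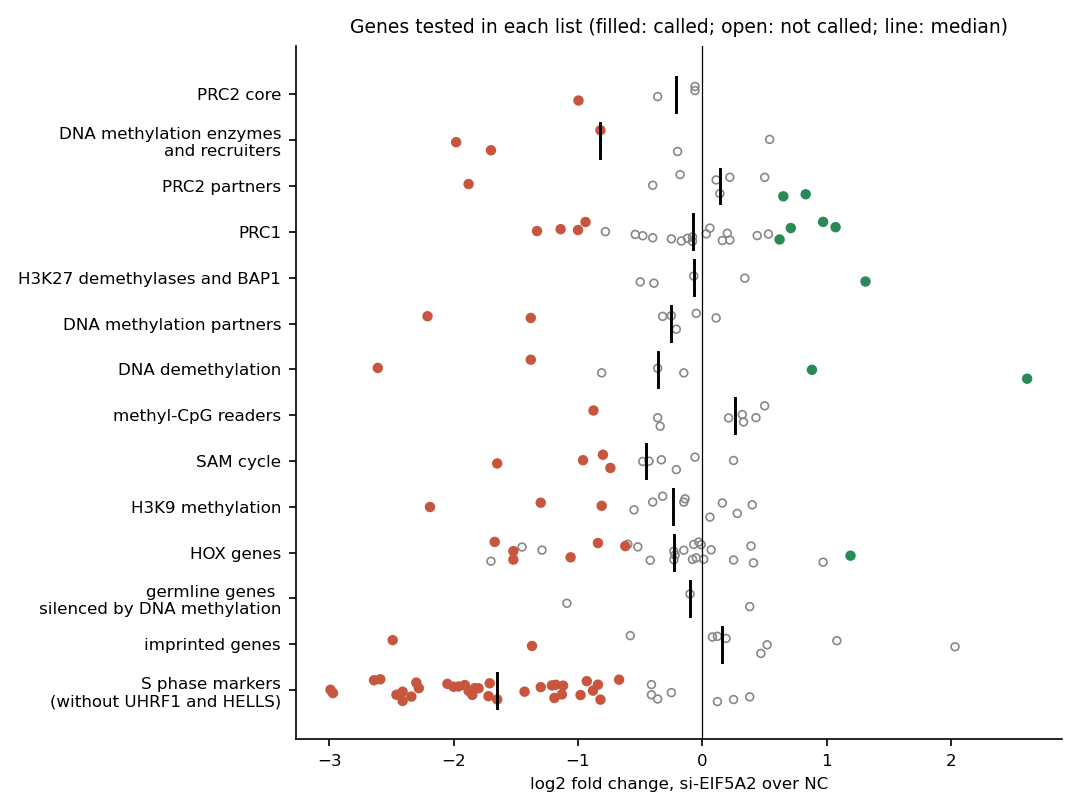
Log2 fold change of si-EIF5A2 over NC (x axis) for each tested gene of 14 lists (rows), filled red where it fell, filled green where it rose and open where it was not called, with a black line at the list median. The S phase markers lie furthest left (median -1.65), and PRC2 partners, PRC1, DNA demethylation and HOX genes hold genes called in both directions.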

How the data were processed

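RNA-seq of SKOV3 cells gave 6 libraries, 3 NC and 3 si-EIF5A2, grouped by their labels; the time of 48 h comes from the series description. According to the methods, mRNA was sequenced as paired ends and transcript levels were estimated with StringTie and ballgown. The authors deposited estimated counts per gene, unnormalized, as whole numbers, with replicates kept apart. The submitters' processing notes name Bowtie 0.12.2 and the mouse builds mm8 and mm9, whereas the identifiers are human; the aligner and build behind the table are otherwise not given in the sources used here, nor is the strand setting. All 6 columns matched a library by name, with 0 left over. Small values are most often near multiples of 3.75 (4 is more frequent than 3 or 5, and 8 than 7 or 9, in every library), but many lie between, so a count is not a fragment and no fixed worth per fragment holds for every gene. The test had been planned for counts; rounding the estimated counts changed nothing.

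Of 58825 identifiers, 58472 had a symbol and 58552 were in GENCODE 29. Counts were filtered (filterByExpr), scaled (TMM) and fitted with edgeR 4.0.16 in R 4.3.3 (robust quasi-likelihood, condition as the only term, Benjamini-Hochberg over 16208 genes). Standard errors are the log2 fold change over the root of F. A count of 0 allows up to 3 fragments. At 3.75 counts each, a worth that does not hold for every gene, that is roughly 0.154 to 0.239 CPM per library, for counting error only. The steps were tested on simulated data. Same-numbered libraries deviated from their group means with correlations of -0.024, 0.005 and -0.003, and other pairs with -0.041 to 0.044. The values thus show no deviation shared by number. They cannot show whether same-numbered libraries were prepared together, and the labels do not say.

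The members and gene lists were chosen with earlier results of these data known. Named were the members, EIF5A2, and from each list the called genes with the 3 largest rises and falls, or any gene of a list of 8 or fewer; E2F1, PHF1, AEBP2, RBBP4, RBBP7, EZHIP, RNF17, TDGP1 and the overlapping genes are not covered by it and were picked with their values in view. Promoters and motifs used RefSeq sequences (GRCh38.p14). Alternatives were RLE and upper-quartile scaling, DESeq2 1.42.0, no filter or 10 counts in every library, a replicate block, counts divided by 3.75, each library left out, and other call limits; for ratios, a prior of 1 CPM.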

Additional observations from a re-analysis of the deposited data

How the results depend on the processing

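EZH2, DNMT1, UHRF1 and HELLS were the members called lower (4) under both other scalings, DESeq2, both other filters, counts divided by 3.75 and with each library left out. The count was 3 by the threshold of the methods and 5 with no limit on the fold change. The number of members called higher was 0 but became 1 (DNMT3A) with no limit on the fold change, and lay between 0 and 1 with a library left out, the 1 being DNMT3A without NC replicate 3 (log2 fold change 0.615, edgeR adjusted p = 0.00631; range with a library left out, 0.49 to 0.615). SUZ12 changed sign, from -0.06 to 0.019, without si-EIF5A2 replicate 2 (range with a library left out, -0.22 to 0.019), and was called in neither; the cause was not tested. Of 117 refits of single members, the other 115 kept direction and call by both limits together, and the 6 ratios kept their direction throughout. A replicate block (pairing by number, which the libraries do not show) gave 4 members lower and 0 higher, with HELLS at -1.98 and an edgeR adjusted p of 0.0787 for EED (0.0236 without the block). Of 428 refits of 33 other named genes, 420 kept their call and 0 changed direction; the 8 that lost it were of SUV39H1 (4), BLM (3) and MTF2 (1), described with the libraries concerned. Scaling moved the median of all genes by under 0.1. Precision is limited by 3 libraries per group and, for genes under about 1 CPM, by few fragments.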

Other observations

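Genes that act beside PRC2 were called in both directions. Of 24 PRC1 genes, which encode the other Polycomb complex, 4 fell and 4 rose (33.3% called, against 24.6% of all genes tested, as for the lists below), with a median log2 fold change of -0.08 against -0.01 for all genes. Both catalytic RING subunits fell, RING1 from 49.2 ± 2.68 to 22.4 ± 3.09 CPM and RNF2 from 23.6 ± 1.75 to 11.8 ± 1.92 CPM (SD, n = 3), as did SCML2 (log2 fold change -1.33), a Sex comb protein. Those that rose included PCGF3 (21.0 to 44.2 CPM), a RING partner of variant PRC1, KDM2B (10.9 to 21.2 CPM), which binds unmethylated CpG islands, and BCORL1 (9.04 to 14.8 CPM). Among 5 genes for removal of PRC2 and PRC1 marks, 1 rose and 0 fell (20.0% called), with a median of -0.07. It was KDM6B, an H3K27 demethylase, at 10.1, 8.51 and 7.27 CPM in NC against 22.6, 18.9 and 22.8 CPM in si-EIF5A2, while KDM6A (log2 fold change 0.34) was not called. Of 12 genes of H3K9 methylation 3 fell and 0 rose (25% called, about the share of all genes), with a median of -0.24: SUV39H1, a methyltransferase (-2.19), CBX5, which encodes HP1 alpha (-1.30), and EHMT2, the methyltransferase G9a (-0.81). The fall of SUV39H1 was no longer called without NC replicate 1, NC replicate 2 or si-EIF5A2 replicate 3 (edgeR adjusted p = 0.064, 0.0589 and 0.0897) or with no filter on low counts (0.0617).

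Of 7 genes of DNA demethylation 2 rose and 2 fell (57.1% called), with a median of -0.36. TDG, the glycosylase that removes oxidised methylcytosine, was at 7.41, 8.82 and 9.21 CPM in NC and at 30.2, 62.9 and 62.3 CPM in si-EIF5A2 (log2 fold change 2.61, SE 0.31, edgeR, Benjamini-Hochberg adjusted p = 0.000985). Its processed pseudogene TDGP1 had a log2 fold change of 1.45, and how fragments were divided between them was not tested. TET3, an oxidase of methylcytosine, rose from 23.6 to 43.5 CPM, whereas TET1 (0.295 CPM in NC) and TET2 (9.50 CPM in NC) were not called. IDH2 fell from 21.3 to 3.48 CPM and IDH1 from 91.5 to 35.1 CPM; both enzymes make 2-oxoglutarate, the cosubstrate of TET enzymes. Of 8 methyl-CpG readers 1 fell and 0 rose (12.5% called), with a median of 0.26, and it was MBD3 (71.2 to 38.7 CPM), of whose exon bases 9.78% are shared with AC005943.1 on the same strand, at 5.55 CPM or below. Of 10 genes that supply methyl groups through S-adenosylmethionine and folate, 4 fell and 0 rose (40.0% called), with a median of -0.46. SHMT2, the mitochondrial serine hydroxymethyltransferase, fell from 937 to 298 CPM, MTHFD1 from 132 to 67.8 CPM and SHMT1 from 20.8 to 11.9 CPM; 2.69% of SHMT1 exon bases lie opposite SMCR8, which reached 52.0 CPM.

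Gene groups known to be silenced by these marks were described too, and neither histone nor DNA methylation was measured. Of 39 HOX genes 28 were tested, of which 6 fell and 1 rose (25% called, about the share of all genes), with a median of -0.23. HOXB4 fell from 61.6 to 21.4 CPM, HOXA7 from 11.7 to 4.08 CPM and HOXC5 from 3.34 to 1.05 CPM, and HOXD1 rose from 1.38 to 3.15 CPM. Exons of these 4 genes overlap those of other transcripts: 62.5% of HOXA7 exon bases lie opposite HOXA-AS3 (0.959 CPM or below), 4.23% of HOXB4 are shared with HOXB3 (33.0 CPM or below), 8.0% of HOXD1 lie opposite HAGLR (27.4 CPM or below), and 59.9% of HOXC5 are shared with a second HOXC5 entry (0.0192 CPM or below). Their counts are less certain, as are those of KDM2B (3.22% of its exon bases opposite RNF34) and of MEST (4.76% opposite COPG2). Of 24 germline genes known to be silenced by DNA methylation, 14 were at 0 counts in all libraries and 3 could be tested, of which 0 were called by edgeR and 0 had an unadjusted p under 0.05 (median -0.10); RNF17, at 7.65 CPM in NC against 7.13 CPM in si-EIF5A2, was the highest of the 3. Of 18 imprinted genes 10 were tested, with 2 that fell, 0 that rose (20.0% called) and a median of 0.15. MEST, a paternally expressed gene, was at 11.3, 10.7 and 8.93 CPM in NC and at 2.29, 1.11 and 2.11 CPM in si-EIF5A2, and CDKN1C, a maternally expressed inhibitor of cyclin-dependent kinases, fell from 11.0 to 4.24 CPM.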
